A study of Mus musculus with 2 samples.

Results

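Genes that mark neurons, neural progenitors, glia, neural crest derivatives and pigment cells were compared between cells of mouse embryos that carried a cartilage reporter and cells that did not. The set holds 49 genes of 18193 with a probe set of their own: 28 of neurons, 7 of neural progenitors and astroglia, 8 of Schwann cells and neural crest, and 6 of melanocytes. A gene's probe sets were those whose platform annotation gives that symbol and no other, 132 probe sets in all for these genes. The cells came from embryos of Col2a1-Venus-Tg mice on a C57Bl/6 background, in which chondrocytes, the cells of cartilage, carry Venus, a modified green fluorescent protein. Col2a1 encodes the main collagen of cartilage. Flow sorting gave 1 sample of Venus-positive and 1 sample of Venus-negative cells, both from the transgenic embryos, and the total RNA of each sample was measured on 1 Affymetrix Mouse Genome array. The sources used here do not give the embryonic stage, the number of embryos or the sorting gates. The comparison asks which neural and crest transcripts were detected in either fraction and which differed between them.

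There was 1 array per fraction, so no value below has a replicate error, no test between the fractions was possible, and each difference describes these 2 arrays. In sorted bulk samples, fewer cells of a type and less RNA per cell cannot be told apart.

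Neurons are recognised by neurofilaments and microtubule-binding proteins of the axon and dendrite, by the machinery of synaptic vesicle release, and by RNA-binding proteins of the ELAV family. Outside the brain and spinal cord, sensory and autonomic neurons, Schwann cells and pigment cells arise from the neural crest, a migratory population at the border of the neural tube. In the head, crest cells also form cartilage, bone and connective tissue, so several crest genes, such as those of the AP-2 family, are also active in facial mesenchyme. Melanocytes make pigment with tyrosinase and 2 related enzymes under control of the transcription factor MITF.

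A signal is the linear MAS5 intensity of a probe set. A floor of 22.5, the median over both arrays, replaced every weaker signal before a ratio was taken. Genes with a probe set at or above the floor in either fraction are called measured, which applied to 64.8% of all genes. Where a gene had several such probe sets, the one brightest on average was used. A fold whose dimmer side lay below the floor is a lower bound, written "at least". Log2 ratios are Venus-positive over Venus-negative. The Venus-positive array was dimmer, and the median log2 ratio of 11789 measured genes was -0.33. A log2 ratio called relative is the distance from this median. Col2a1 had a signal of 606 in Venus-negative cells and was 13.9-fold higher, at 8443, in Venus-positive ones. With the floor applied, the signals of 11 chondrocyte matrix genes summed to 2683 in Venus-negative cells and to 45782 in Venus-positive ones. Marker lists of leukocytes, skeletal muscle, red cells, endothelium and epithelium were summed in the same way, over 5 to 8 measured genes each. All 5 sums were lower in Venus-positive cells, by at least 9.18-, 9.17-, 10.9-, 4.53- and 4.22-fold in that order, where each list had 1 to 5 genes below the floor. The sum over all measured genes was 1.16-fold lower. Whether these other cell types had a part in the differences below was not tested.

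Of the 49 neural, glial, crest and pigment cell genes, 34 were measured and 15 were below the floor on both arrays. The log2 ratio was below 0 for 31 of the 34, as it was for 77.3% of all measured genes. Of the 34, 17 (50%) had a signal in Venus-positive cells that was at least 2-fold lower, against 11.6% of all measured genes, and 0 were at least 2-fold higher, against 2.79%. At 4-fold, 6 were lower, against 2.24% of all measured genes, and 4 relative to the median gene, against 1.31%. The 6 were the neurofilament genes Nefl and Nefm, the growth cone gene Gap43, the neurotrophin receptor gene Ngfr, the endothelin receptor gene Ednrb and the AP-2 gene Tfap2b. Gap43 and Ngfr were within 4-fold on the relative scale. Relative to the median gene, 11 were at least 2-fold lower (32.4%), against 6.45% of all measured genes, and 0 were 2-fold higher, against 5.06%. The median log2 ratio of the measured members was -0.97, or -0.64 relative to the median gene.

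The direction of some log2 ratios was set by the floor. A gene that reached it on the Venus-negative array alone had to be lower, though not by 2-fold. Such genes were 14 of the 34 members and 1211 of all 11789 measured genes, while 1 member, Cdh19, reached it on the Venus-positive array alone. The other 19 reached it on both arrays. Of these 19, 12 were at least 2-fold lower (63.2%), against 9.84% of all genes that reached the floor on both. Members whose brighter signal lay under 4 times the floor gave 5 lower of 17, against 12.0% of all measured genes in that range. Those at or above it gave 12 lower of 17, against 11.4%. When a floor at the 25th percentile was used instead, 29 of 47 measured members were at least 2-fold lower, against 16.1% of all measured genes, and 2 were higher. At the 75th percentile 2 of 13 were lower, against 6.39%.

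**Figure D1:**
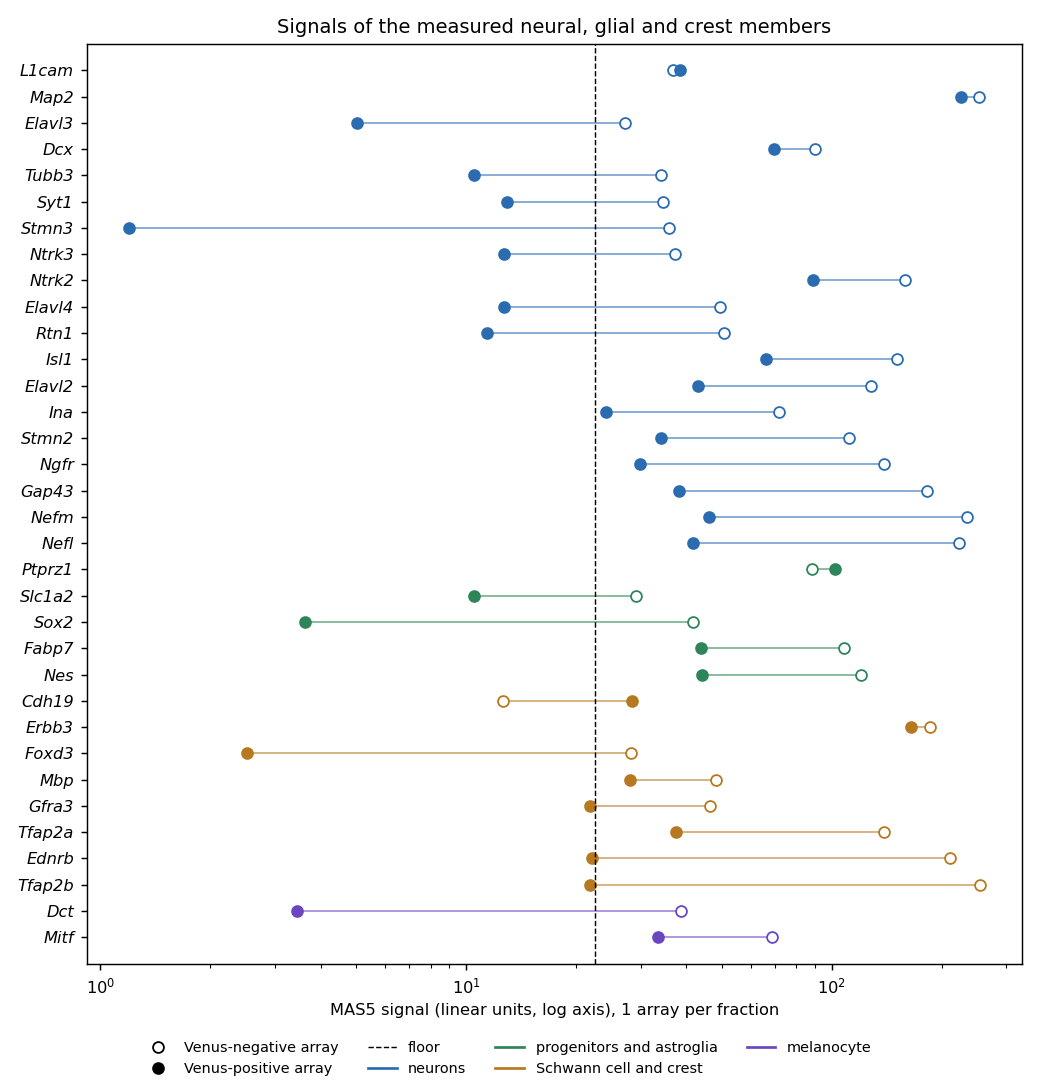
MAS5 signal (log axis) of each of the 34 measured members on the Venus-negative array (open circles) and the Venus-positive array (filled circles), 1 array each, by group of genes and ordered within a group by log2 ratio. The dashed line is the floor of 22.5. The open circle lies to the right for all but L1cam, Ptprz1 and Cdh19.

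The neurofilament genes Nefl and Nefm, with Gap43 and Ngfr, were the 4 neuronal genes at least 4-fold lower. Neurofilaments are the intermediate filaments of axons. Nefl, which encodes the light subunit, had a signal of 223 in Venus-negative and 41.7 in Venus-positive cells, 5.34-fold lower, with a relative log2 ratio of -2.08. Its second probe set read 111 against 34.8, a 3.20-fold difference in the same direction. Nefm, the medium subunit, stood at 235 in Venus-negative and 46.2 in Venus-positive cells, 5.08-fold lower. Both genes kept a signal above the floor in the Venus-positive fraction. Ina, which encodes alpha-internexin, a filament partner of young neurons, was 2.97-fold lower at 24.1 against 71.7. A second probe set of Ina was below the floor in Venus-positive cells (10.7 against 26.7) and gave at least 1.19-fold. The heavy subunit gene Nefh, a late marker of large axons, did not exceed 6.66 on either array. Prph, which encodes peripherin of peripheral neurons, did not exceed 6.20, and both lie below the floor.

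Genes of axon growth and of microtubules were split. Gap43, whose protein sits in growth cones, read 183 in Venus-negative and 38.1 in Venus-positive cells, 4.79-fold lower. Stmn2, a stathmin that destabilises microtubules in growing axons, read 112 against 34.0, 3.28-fold lower. A second Stmn2 probe set, at 76.0 against 17.6, gave at least 3.38-fold. The related gene Stmn3 was at 35.9 in Venus-negative cells and 1.20, far under the floor, in Venus-positive cells, so its fold is a bound of at least 1.59. Tubb3, the neuronal beta-tubulin gene, was at 34.1 against 10.5, at least 1.51-fold lower. In contrast to the filament genes, Map2 and Dcx differed little. Map2, which encodes a microtubule-binding protein of dendrites, stood at 253 in Venus-negative and 225 in Venus-positive cells, a log2 ratio of -0.17 and 0.16 relative to the median gene. Its second measured probe set was at 36.0 against 37.6. Dcx, the doublecortin gene of migrating neurons, was at 90.2 against 69.3, a log2 ratio of -0.38, close to that of the median gene. Mapt, which encodes tau, did not exceed 21.9 with any of its probe sets and was not measured. In all, 5 of the 9 measured cytoskeletal and growth cone genes were at least 2-fold lower on either scale. Of all measured genes, 11.6% were so as deposited and 6.45% relative to the median gene.

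Genes of vesicle release and secretion were dim, below the floor or not far above it. Rtn1, which encodes a reticulon of the endoplasmic reticulum in neurons and neuroendocrine cells, was at 50.6 against 11.4, at least 2.25-fold lower. Syt1, the calcium sensor of synaptic vesicles, was at 34.6 against 13.0, at least 1.54-fold lower. Neither reached the floor in Venus-positive cells. The SNARE gene Snap25 did not exceed 12.4 on either array, Syt4 did not exceed 10.4, and the synapsin gene Syn1 did not exceed 9.66. Of the 5 genes in this group 2 were measured, against 9 of 12 filament, microtubule and growth cone genes.

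The 3 neuronal ELAV genes, whose proteins stabilise neuronal messenger RNAs, differed in how far they could be measured, and 2 of them were at least 2-fold lower. Elavl2 was at 128 in Venus-negative and 43.2 in Venus-positive cells, 2.97-fold lower, and its other measured probe sets gave 3.02-fold and at least 2.15-fold. Elavl4 was at 49.6 against 12.7, at least 2.20-fold lower, with other probe sets at bounds of at least 1.92- and 1.65-fold. Elavl3, at 27.1 against 5.03, lay so close to the floor that its bound was only 1.21-fold. Elavl2 alone of the 3 was above the floor in both fractions and remained 2-fold lower relative to the median gene.

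Of 3 neuronal transcription factor genes, 1 was measured. Isl1, a LIM homeodomain factor of sensory and motor neurons that is also used in other embryonic tissues, was at 151 in Venus-negative and 66.2 in Venus-positive cells, 2.28-fold lower. Relative to the median gene its log2 ratio was -0.86, within 2-fold. A second probe set gave at least 1.81-fold (14.4 against 40.6). Pou4f1, a POU factor of sensory neurons, reached 21.1 in Venus-negative cells and 10.1 in Venus-positive cells, just under the floor. Neurod1, a basic helix-loop-helix factor of neuronal differentiation, did not exceed 7.66 on either array.

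The neurotrophin receptor genes differed in size of effect. Ngfr encodes the low-affinity receptor p75, which is carried by sensory neurons and also by Schwann cells and migrating crest. Its signal was 139 in Venus-negative and 29.9 in Venus-positive cells, 4.65-fold lower. Ntrk2, the receptor gene for brain-derived neurotrophic factor, was at 159 against 88.7, 1.79-fold lower, and a second probe set gave 1.84-fold. Relative to the median gene, the log2 ratio of Ntrk2 was -0.51. Ntrk3, the receptor gene for neurotrophin 3, was at 37.4 against 12.7, at least 1.66-fold lower. L1cam, an adhesion molecule of growing axons, was level at 36.9 in Venus-negative and 38.5 in Venus-positive cells. Scn9a, a sodium channel gene of pain-sensing neurons, did not exceed 11.9 on either array.

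Among genes of neural progenitors and astroglia, 5 of 7 were measured and 2 were at least 2-fold lower. Nes, which encodes nestin, the intermediate filament of neural progenitors that is also found in young muscle and vessels, was at 120 in Venus-negative and 44.3 in Venus-positive cells, 2.71-fold lower. Its second measured probe set gave 3.31-fold. Fabp7, a fatty acid binding protein of radial glia and early Schwann cells, was at 108 against 43.8, 2.46-fold lower, with a relative log2 ratio of -0.97. Sox2, a factor that keeps neural cells in the progenitor state, was at 41.8 in Venus-negative and 3.63 in Venus-positive cells, at least 1.86-fold lower. Slc1a2, a glutamate transporter gene of astrocytes, was at 29.2 against 10.5, at least 1.30-fold lower. Ptprz1, a receptor phosphatase gene of glia, went the other way by a small amount, at 88.4 in Venus-negative and 102 in Venus-positive cells, a log2 ratio of 0.21 and 0.54 relative to the median gene. Its second measured probe set, at 54.2 against 59.9, lay on the same side. Sox3, the progenitor factor related to Sox2, reached 2.63 in Venus-negative and 16.1 in Venus-positive cells, both under the floor, and the astrocyte filament gene Gfap did not exceed 7.62.

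Among genes used in neural crest, Tfap2b and Ednrb had the lowest log2 ratios of the 34 measured members, taking the brightest probe set of each. With the mean over probe sets, the log2 ratio of Ednrb was -1.66. Tfap2b, which encodes the transcription factor AP-2 beta, was at 254 in Venus-negative and 21.9 in Venus-positive cells, at least 11.3-fold lower. Its second probe set, at 233 against 21.4, gave at least 10.4-fold. Tfap2a, which encodes AP-2 alpha and is also expressed in surface ectoderm, was at 139 against 37.4, 3.72-fold lower. A second probe set of Tfap2a gave at least 3.52-fold (12.3 against 79.3), and the third was at the floor in Venus-negative cells, at 22.8 against 1.20. Epithelial markers, which share the surface ectoderm with Tfap2a, were at least 4.22-fold lower when summed, 388 against 1637, with 7 of 8 at least 2-fold lower; their part in the value of Tfap2a was not tested.

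Ednrb, the endothelin receptor gene of migrating crest, melanoblasts and enteric neuron precursors, is also expressed in some vessels. It was at 210 in Venus-negative and 22.0 in Venus-positive cells, at least 9.32-fold lower. Its other probe sets were at 61.1 against 11.2, at least 2.72-fold, and at 28.1 against 15.6, at least 1.25-fold. All 3 lay in the same direction, and none reached the floor in Venus-positive cells. The endothelial markers summed to 702 in Venus-negative and at most 155 in Venus-positive cells, with 6 of 6 at least 2-fold lower, and their part in the value of Ednrb was not tested. AP-2 proteins bind the palindrome GCCNNNGGC, and the RefSeq sequence before the start of Ednrb is shown because it holds these letters and both this gene and Tfap2b were the lowest members. The stretch lies on the minus strand of GRCm38.p6 at chr14:103843852-103843951, from -250 to -151 relative to the start, and the capitals mark the match that begins at position -195.
Ednrb: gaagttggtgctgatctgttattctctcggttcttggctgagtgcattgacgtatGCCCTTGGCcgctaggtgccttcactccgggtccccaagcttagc
These letters, which read the same on both strands, occur in the 250 bases before 13.7% of 32851 RefSeq gene starts, so the match is a description of this window and not a binding site shown by these data. Among the 33 members with a start in the table, 4 held a match, Ednrb, Prph, Ptprz1 and Rtn1, and these 4 did not share a direction or a level of detection.

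Genes of the Schwann cell lineage were split. Erbb3, the neuregulin receptor gene that Schwann cell precursors need, was at 186 in Venus-negative and 164 in Venus-positive cells, a log2 ratio of -0.18 and 0.16 relative to the median gene. Cdh19, a cadherin gene of Schwann cell precursors, was at 12.6 in Venus-negative and 28.4 in Venus-positive cells, at least 1.26-fold higher. Gfra3, the co-receptor gene for artemin, was at 46.4 against 21.8, at least 2.06-fold lower. Foxd3, a forkhead factor of early crest and its glia, was at 28.3 against 2.52, and its position near the floor leaves a bound of only 1.26-fold. Mbp, which encodes myelin basic protein and also transcripts outside glia, gave no settled direction. The probe set brightest on average was at 48.2 in Venus-negative and 28.1 in Venus-positive cells, while another was at 4.60 against 34.0, at least 1.51-fold higher. The other 6 of 8 Mbp probe sets were below the floor on both arrays. In the whole Schwann cell and crest group, 4 of 8 genes were at least 2-fold lower with signals as deposited. Relative to the median gene, 3 of 8 were. Over all measured genes the shares were 11.6% and 6.45%. The 4 were the crest genes Ednrb, Tfap2a and Tfap2b and, of the Schwann cell genes, Gfra3 alone. Gfra3 was within 2-fold relative to the median gene.

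Of 6 melanocyte genes, 2 were measured. Mitf, the master regulator of the lineage, which also has isoforms in many other cells, was at 68.8 in Venus-negative and 33.4 in Venus-positive cells, 2.06-fold lower, with a relative log2 ratio of -0.71. Dct, which encodes dopachrome tautomerase, the earliest pigment enzyme of melanoblasts, was at 38.7 in Venus-negative and 3.45 in Venus-positive cells, at least 1.72-fold lower. The other 4 genes were below the floor in both fractions. Pmel, which builds the fibrils of the pigment granule, was at 20.0 against 15.6. The tyrosinase gene Tyr did not exceed 6.18, Tyrp1 did not exceed 4.84, and Mlana did not exceed 1.06. MITF acts on pigment enzyme genes through the M-box, whose core is TCATGTG, and the sequences before Dct, Tyr and Tyrp1 are shown because these enzyme genes share that core while only Dct reached the floor. Capitals mark the core, and each stretch is 100 bases of GRCm38.p6 from RefSeq. Dct is on the minus strand at chr14:118052347-118052446, Tyr on the minus strand at chr7:87493513-87493612 and Tyrp1 on the plus strand at chr4:80834113-80834212.
Dct: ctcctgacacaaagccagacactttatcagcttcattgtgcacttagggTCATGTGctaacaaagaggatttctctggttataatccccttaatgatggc
Tyr: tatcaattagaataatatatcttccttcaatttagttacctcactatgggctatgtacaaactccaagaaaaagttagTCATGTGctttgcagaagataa
Tyrp1: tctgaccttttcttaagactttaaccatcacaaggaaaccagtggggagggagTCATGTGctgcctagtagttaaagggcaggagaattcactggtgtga
The core begins at position -151 in Dct, -22 in Tyr and -47 in Tyrp1, counted from the RefSeq start. Dct holds another match at -232 on the opposite strand, outside the printed stretch. Searched on both strands, the core occurs in the 250 bases before 3.25% of all RefSeq starts and in 3 of the 4 melanocyte genes in the table. The fourth is Mitf itself. No other member among the 33 held it. The M-box is an element of pigment enzyme genes, so matches before Dct, Tyr and Tyrp1 describe these windows and test nothing.

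**Figure D2:**
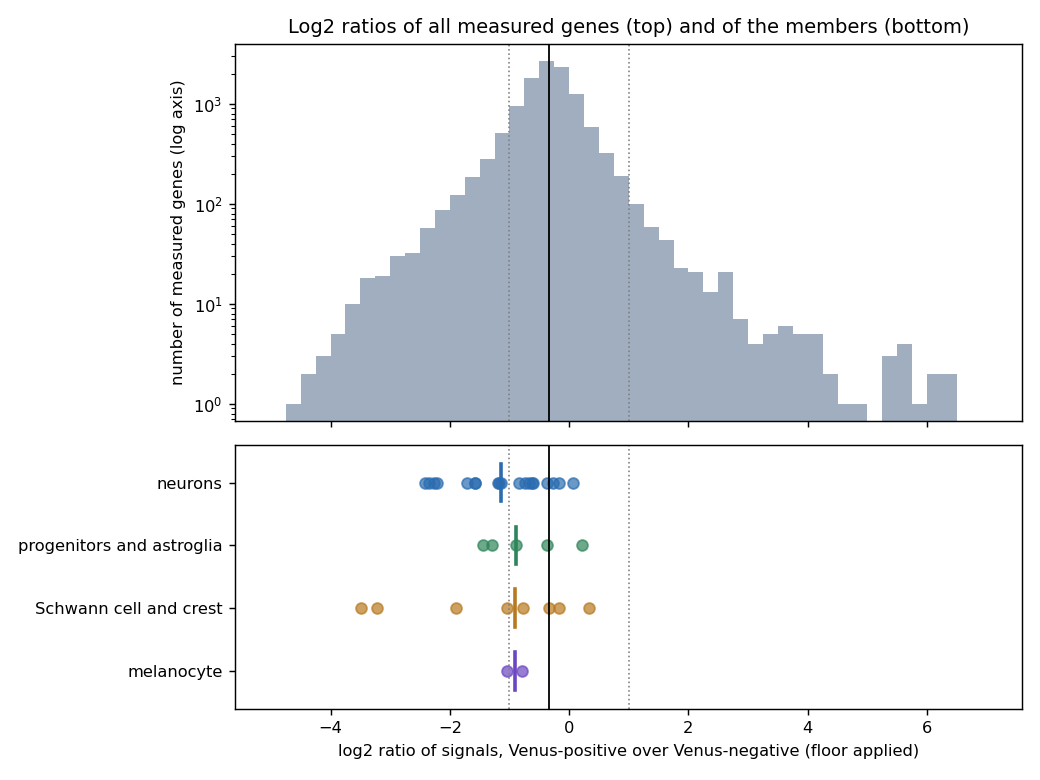
Log2 ratio (Venus-positive over Venus-negative) for all 11789 measured genes (top, number of genes on a log axis) and for the 34 measured members by group (bottom, each point a gene, short bars the group medians). The solid line is the median of all measured genes, -0.33, and the dotted lines mark 2-fold. No member lies beyond the right dotted line and 17 lie beyond the left one.

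The groups hold unequal numbers of measured genes, so their ranges cannot be compared directly. The median log2 ratio was -1.14 for 19 measured neuronal genes, -0.90 for 5 progenitor and astroglial genes, -0.91 for 8 Schwann cell and crest genes and -0.91 for 2 melanocyte genes. Bounds enter these medians. Among genes at the floor or above on both arrays, the median was -1.57 for 12 neuronal and -1.30 for 3 progenitor and astroglial genes. It was -0.78 for 3 Schwann cell and crest genes and -1.04 for 1 melanocyte gene. The value of -0.78 is that of Mbp, whose probe sets gave no settled direction. The neuronal genes ran from -2.42 for Nefl to 0.06 for L1cam. The Schwann cell and crest genes ran from -3.50 for Tfap2b to 0.33 for Cdh19, the widest range of the 4 groups. Of all 34 measured members, 27 lay below the median gene and 7 above it. The 7 were Map2, L1cam, Ptprz1, Erbb3 and Cdh19, together with Elavl3 and Foxd3, whose ratios are bounds and could lie lower. With the floor applied, the signals of the measured members summed to 3478 in Venus-negative and 1542 in Venus-positive cells, at least 2.26-fold lower, where 14 of them were below the floor in Venus-positive cells. For the neuronal genes the sums were 2050 and 902.

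**Figure D3:**
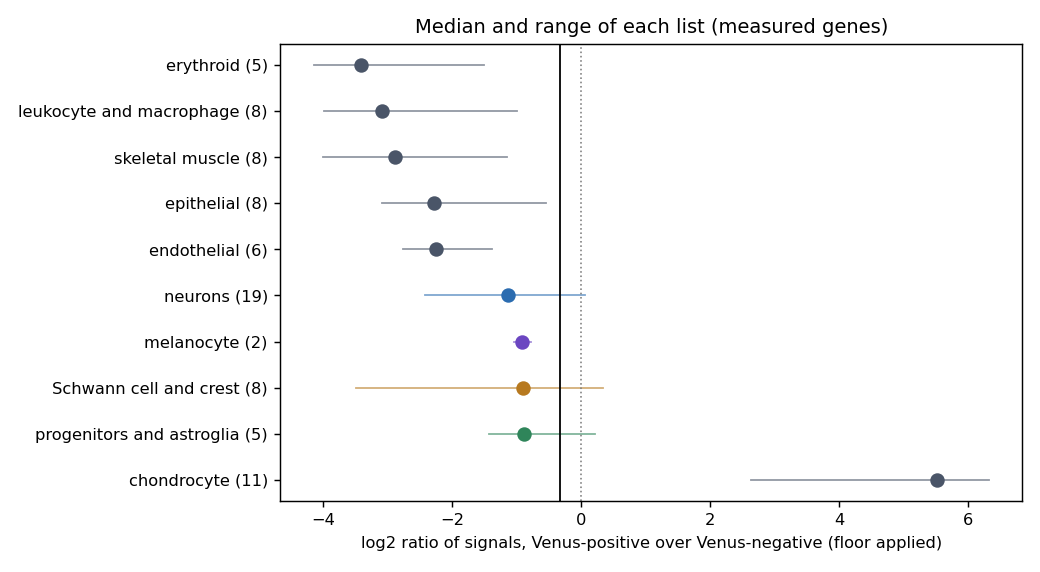
Median (points) and range (lines) of the log2 ratio (Venus-positive over Venus-negative) for the 4 groups of members (coloured) and for marker lists of other cell types (grey), with the number of measured genes in brackets. The solid line is the median of all measured genes, -0.33. The medians of the 4 groups lie between -1.14 and -0.90, those of the other non-cartilage lists between -3.42 and -2.25, and that of the chondrocyte list at 5.51.

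Set beside the marker lists of other cell types, the neural and crest groups lay closer to the median gene. The list medians were -2.25 for endothelial, -2.29 for epithelial, -2.89 for skeletal muscle, -3.09 for leukocyte and macrophage and -3.42 for red cell genes. With 1 array per fraction, no test of the difference between lists was made, and the dimmer members, whose ratios are bounds, draw a list's median toward 0. Members that reached the floor on both arrays had a median of -1.30.

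Probe sets of the same gene mostly lay on the same side of 0. Of 17 members with several measured probe sets, 14 had all of them below 0, 1 (Ptprz1) had all above 0, and 2 (Map2 and Mbp) had them on both sides. All measured probe sets were at least 2-fold lower for 5 members, Nefl, Stmn2, Elavl2, Nes and Tfap2b. Over all 55 measured probe sets of members, 25 were at least 2-fold lower and 0 at least 2-fold higher. The share among probe sets of all genes was not computed. The 55 probe sets share the same 2 RNA samples and are not replicates.

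**Figure D4:**
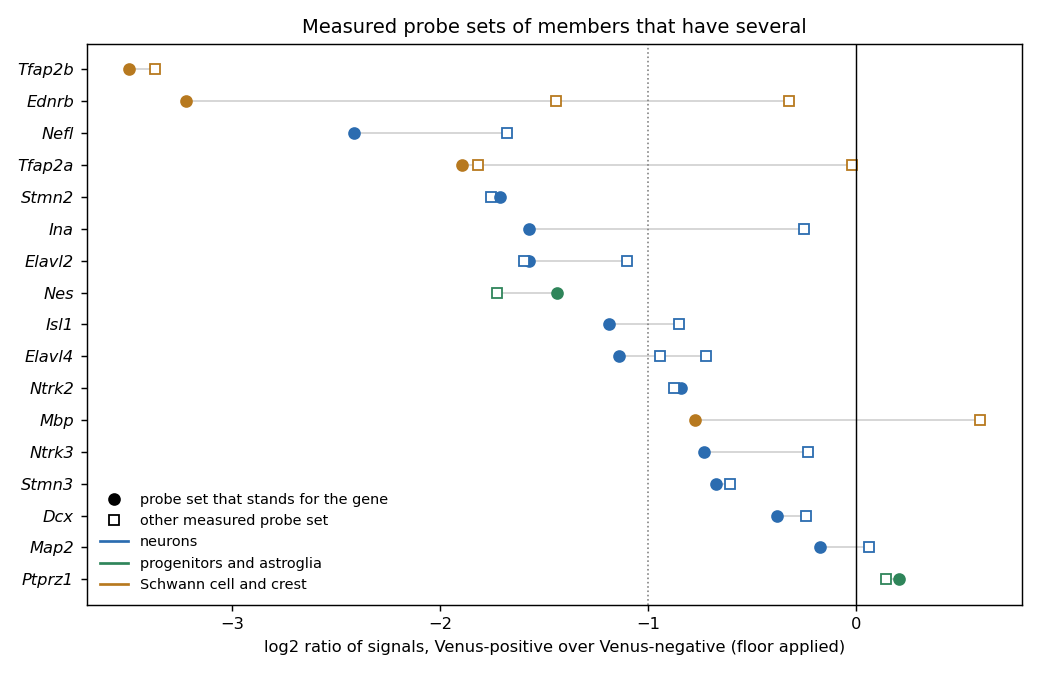
Log2 ratio (Venus-positive over Venus-negative) for each measured probe set of the 17 members that have several. Filled circles are the probe sets that stand for a gene and open squares the others. The dotted line marks 2-fold lower. The widest spreads are in Ednrb (-3.22 to -0.32), Tfap2a (-1.90 to -0.02), Mbp (-0.78 to 0.60) and Ina (-1.57 to -0.25).

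Further genes of the same cell types, not among the 49, were examined in the same way. Of 70 with a probe set of their own, 39 were measured. Of these, 11 (28.2%) were at least 2-fold lower, against 11.6% of all measured genes, and 2 (5.13%) at least 2-fold higher, against 2.79%. Relative to the median gene, 8 were lower (20.5%), against 6.45% of all measured genes, and 3 higher, against 5.06%. Of the 39, 20 lay above the median gene. Of 18 measured neuronal genes, 6 were lower and 0 higher. The largest differences were in Ebf3, a helix-loop-helix factor of neurons and also of mesenchyme (1239 in Venus-negative against 323 in Venus-positive cells, 3.83-fold lower), Nsg2, an endosomal protein gene of neurons (175 against 52.4, 3.34-fold lower), and Dpysl3, a growth cone gene (557 against 199, 2.81-fold lower). Of 5 measured progenitor and glial genes, 2 were lower, Gpm6a at 45.7 against 5.83 (at least 2.03-fold) and Prom1 at 820 against 404 (2.03-fold), and neither was 2-fold lower relative to the median gene. Msi1, an RNA-binding protein gene of progenitors, was at 168 against 91.4. The other 10 listed, among them the neural tube factors Pax6 and Olig2, were below the floor on both arrays.

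Of 11 further Schwann cell and crest genes measured, 0 were at least 2-fold lower, not far from the 11.6% of all measured genes, and 2 were at least 2-fold higher, against 2.79%. S100b, a calcium-binding protein gene of Schwann cells that chondrocytes express as well, was at 18.8 in Venus-negative and 306 in Venus-positive cells, at least 13.6-fold higher. Pmp22, which encodes a myelin membrane protein also made outside nerve, was at 670 against 1420, 2.12-fold higher. Sox10, a factor of crest and glia, was at 16.7 in Venus-negative and 41.0 in Venus-positive cells, at least 1.82-fold higher. The median log2 ratio of this list was 0.01, and relative to the median gene these 3 genes were all at least 2-fold higher. Of 5 further melanocyte genes measured, 3 were at least 4-fold lower, against 2.24% of all measured genes, although each is also expressed in other lineages. Relative to the median gene these 3 were at least 2-fold but not 4-fold lower. Met, the receptor gene for hepatocyte growth factor, was at 109 against 14.2 (at least 4.85-fold), Rab38, a gene of pigment granule transport, at 92.4 against 18.5 (at least 4.11-fold) and Kit, the stem cell factor receptor gene, at 103 against 25.6 (4.02-fold). The others of the 5, Rab27a (30.7 against 39.1) and Mreg (50.1 against 53.0), went the other way by small amounts. Their log2 ratios were 0.35 and 0.08.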

How the data were processed

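Each deposited value is the linear intensity of a probe set on 1 array, computed by the authors with MAS5, per the submitters' processing notes. The sources used here give no version, scaling target or detection calls. Precision is limited by having 1 array per group. Groups come from the cell type in the labels. Of 45101 probe sets, 64 controls were set aside, and 34945 with 1 symbol in the platform annotation were used. Gene identifiers of all 49 members matched RefSeq (GRCm38.p6). Signals below 22.5, the median of both arrays, were raised to it, and log2 ratios were taken with Python 3.11.15, pandas 2.3.3 and numpy 2.4.6. Counts use 2-fold and 4-fold differences and are no tests. The procedure was tested on simulated data. Only genes far above the floor in Venus-negative cells were changed there, so signals near the floor were not covered. Members and lists were chosen with earlier results of these data known. Every measured member is named with both signals, with the 3 further genes per group of largest absolute log2 ratio. Pax6, Olig2, Rab27a and Mreg were named after their values were seen. The 8 alternatives are other scalings, floors and choices of probe set. RefSeq held sequences before the start of 33 members.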

Additional observations from a re-analysis of the deposited data

How the results depend on the processing

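With 1 array per fraction, values were set against 0.34, the pooled spread (SD) between log2 ratios of a gene's own probe sets, and counts against a factor of 1.5. No paired analysis was possible because each group has 1 sample. The floor mattered most. With it at the 25th percentile, 47 members were measured, 29 were at least 2-fold lower and 2 at least 2-fold higher. The medians were -1.30 for progenitors and astroglia and -1.49 for Schwann cell and crest genes. Of all measured genes, 16.1% were at least 2-fold lower at that floor, and their median was -0.34. With it at the 75th percentile, 13 members were measured and 2 were at least 2-fold lower. Medians were -0.40 for all of them, -0.44 for neurons and -0.070 for progenitors and astroglia. All measured genes then had a median of -0.28, which left the members' median only -0.12 away, against -0.64 at 22.5. The progenitor and astroglial value, that of Nes alone, lay above the median of all genes. Fewer genes tested and smaller bounds follow from this higher floor. Centring on the median gene and quantile normalization each left 11 members at least 2-fold lower. Elavl4, Fabp7, Gfra3, Isl1, Mitf and Rtn1 were no longer among them. The shares of all measured genes fell as well, to 6.45% and 6.53%, from 11.6% with signals as deposited. Under quantile normalization the median was -0.62 for all measured members and -0.48 for Schwann cell and crest genes. The median of all measured genes moved as well, from -0.33 to -0.02. The distance of the members' median from it was -0.60, against -0.64 before. The cause of the change in the Schwann cell and crest median was not tested. Scaling to the hybridisation controls left 14 lower, log2(signal + 16) without a floor 19, the mean over probe sets 15, and leaving out probe sets that can match several transcripts 17. Of all measured genes, 7.46%, 10.5%, 10.3% and 11.5% were at least 2-fold lower, in that order. No median and no member at least 2-fold lower changed sign under any of the 8 alternatives that gave it a value. For such a member most of the alternatives could hardly change the sign. A floor or an added constant keeps the order of a probe set's signals. Centring and control scaling moved log2 ratios by less than 2-fold. Members near the floor have no settled fold.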
